A study of Oryza sativa Japonica Group and Oryza sativa Indica Group and Oryza sativa Indica Group x Oryza sativa Japonica Group with 9 samples.

Results

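Expression of 9 rice loci of cytokinin metabolism and early cytokinin signalling was followed in shoots of 14-day-old seedlings of 2 rice cultivars, C92 and MH63, and of the F1 hybrid between them. The loci came from a fixed list of locus IDs, drawn up with earlier results of these data known, and make up 9 of the 55783 loci in each library. They comprise 3 turnover loci, namely the cytokinin oxidases CKX2 (also called Gn1a, LOC_Os01g10110) and CKX4 (LOC_Os01g71310) and the activating enzyme LOG (LOC_Os01g40630). The other 6 are type-A response regulators, namely RR1 (LOC_Os04g36070), RR2 (LOC_Os02g35180), RR4 (LOC_Os01g72330), RR6 (LOC_Os04g57720), RR9 (LOC_Os11g04720) and RR10 (LOC_Os12g04500). The symbols came with the list, since the files give locus IDs alone. A RefSeq gene table (assembly ASM3414082v1) holds all 9 symbols on the chromosome that the locus ID names, with 7 of them within 0.03 of the chromosome length of the place in the locus ID. RR9 and RR10 lay beyond that tolerance, the farther of them at 0.0326.

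Cytokinins are adenine-derived hormones that promote shoot growth and cell division. LOG enzymes release the active free base from its nucleotide, and cytokinin oxidases break the hormone down irreversibly, so the level of active hormone depends on both. The signal passes from histidine kinase receptors through phosphotransfer proteins to type-B response regulators, which are transcription factors. Type-A response regulators are among the genes these factors switch on first, and they dampen the pathway in return, so their mRNA is widely used as a readout of cytokinin signalling. In rice, low activity of the Gn1a oxidase gene raises grain number, and LOG was first described as a gene needed by the shoot meristem.

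The series holds 9 RNA-seq libraries of polyadenylated RNA in 3 groups of 3. The labels give C92 as japonica and MH63 as indica rice. They write the hybrid as C92×MH63 in the titles and as MH63 x C92 in the cultivar field, so the direction of the cross is not settled. All seedlings grew in water at 28 °C with 16 h of light. Replicates are described as biological, without a word on how plants were divided, so the p-values reflect the spread among these libraries, which may be technical. Values are FPKM, the fragments at a locus divided by its length and by the size of the library. Read numbers were not at hand. Depth read from the low values was between 0.957 and 1.24 times that of C92 library 1. Markers of green shoot, namely 5 loci for Rubisco and its activase and a light-harvesting protein, summed to between 23046.5 and 26641.3 FPKM in every library. The light-harvesting locus LOC_Os01g41710 differed between the groups, at 2667.17, 4417.8 and 3117.27 FPKM in C92, 1927.18, 1985.12 and 2178.55 in MH63, and 2092.22, 1369.39 and 1098.03 in F1. Its parental libraries do not overlap. The same holds, with MH63 the higher parent, for the Rubisco loci LOC_Os12g19381 and LOC_Os12g19470. The former ran from 4292.26 to 6100.45 FPKM in C92 and from 6343.92 to 6765.23 in MH63. The latter ran from 483.49 to 693.9 FPKM in C92 and from 815.59 to 979.32 in MH63. The part of these markers in the results was not tested. Of 5 root markers, 4 stayed below 1 FPKM in every library. The 5 together summed to 4.29 to 6.44 FPKM for C92, 6.18 to 7.47 for MH63 and 7.39 to 8.26 for F1. The marker above 1 FPKM, LSI1 (LOC_Os02g51110), ran from 3.41 to 5.51 FPKM in C92, 5.77 to 7.01 in MH63 and 6.66 to 7.24 in F1. Its C92 libraries lay below all others. The part of the root markers in the results was not tested. The shoot meristem markers OSH1 (LOC_Os03g51690) and OSH15 (LOC_Os07g03770) together reached at most 0.43 FPKM. In whole shoots, fewer cells of a type and less RNA per cell cannot be told apart.

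LOG was by far the most abundant of the loci. It stood at 159.75, 104.51 and 135.2 FPKM in C92 libraries 1, 2 and 3, at 72.25, 88.1 and 122.81 in MH63, and at 126.52, 96.26 and 128.93 in F1. The groups overlap, with the highest MH63 library inside the range of C92 and F1. Its mean over all libraries, 115 FPKM, exceeded that of 98.2% of the loci with a value above 0. C92 averaged 133 ± 27.7 FPKM and MH63 94.4 ± 25.9 (SD, n = 3), and the fitted difference on the log2(FPKM + 1) scale was 0.51 (95% interval 0.02 to 0.99), which did not pass correction (limma adjusted p = 0.101). Single libraries moved this value: it was 0.71 without MH63 library 3 and passed (limma adjusted p = 0.0257), 0.33 without MH63 library 1 (adjusted p = 0.294) and 0.36 without C92 library 1 (adjusted p = 0.265).

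CKX2 was close to the lower end of what these libraries can register. It was listed at 0.04, 0.06 and 0.02 FPKM in C92, at 0.14, 0.08 and 0.12 in F1, and at 0.02, 0.86 and 0.04 in MH63. MH63 library 2 therefore stood 43 times above the lowest library of its group, and the remaining 8 libraries lay at or below 0.14 FPKM. The locus did not reach 1 FPKM in 3 libraries and was left out of the main fit. With no filter its difference between C92 and MH63 was -0.27 (95% interval -0.73 to 0.19, limma adjusted p = 0.436). Such values were more frequent in MH63 library 2 than elsewhere: 109 of the 55783 loci reached 0.5 FPKM there and at least 10 times the level of both other MH63 libraries, against 6 to 26 loci in each of the other 8 libraries.

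CKX4 was the more abundant of the oxidase pair and the most variable of the 8 tested loci on the log2 scale. Its FPKM was 2.57, 5.3 and 11.88 for C92, 2.18, 3.86 and 1.28 for MH63, and 3.94, 7.14 and 9.57 for F1. Every F1 library lay above every MH63 library, while C92 spanned nearly the whole range. The mean FPKM was 6.58 ± 4.79 for C92, 2.44 ± 1.31 for MH63 and 6.88 ± 2.82 for F1 (SD, n = 3). On the log2 scale CKX4 was 1.01 above MH63 in C92 (95% interval -0.03 to 2.06, limma adjusted p = 0.123) and 1.20 above it in F1 (0.15 to 2.24, adjusted p = 0.107), and neither difference passed. Without C92 library 1, the lowest of its group, the difference between the parents was 1.46 (limma adjusted p = 0.0341), and without C92 library 3, the highest, it was 0.53 (adjusted p = 0.384).

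**Figure D1:**
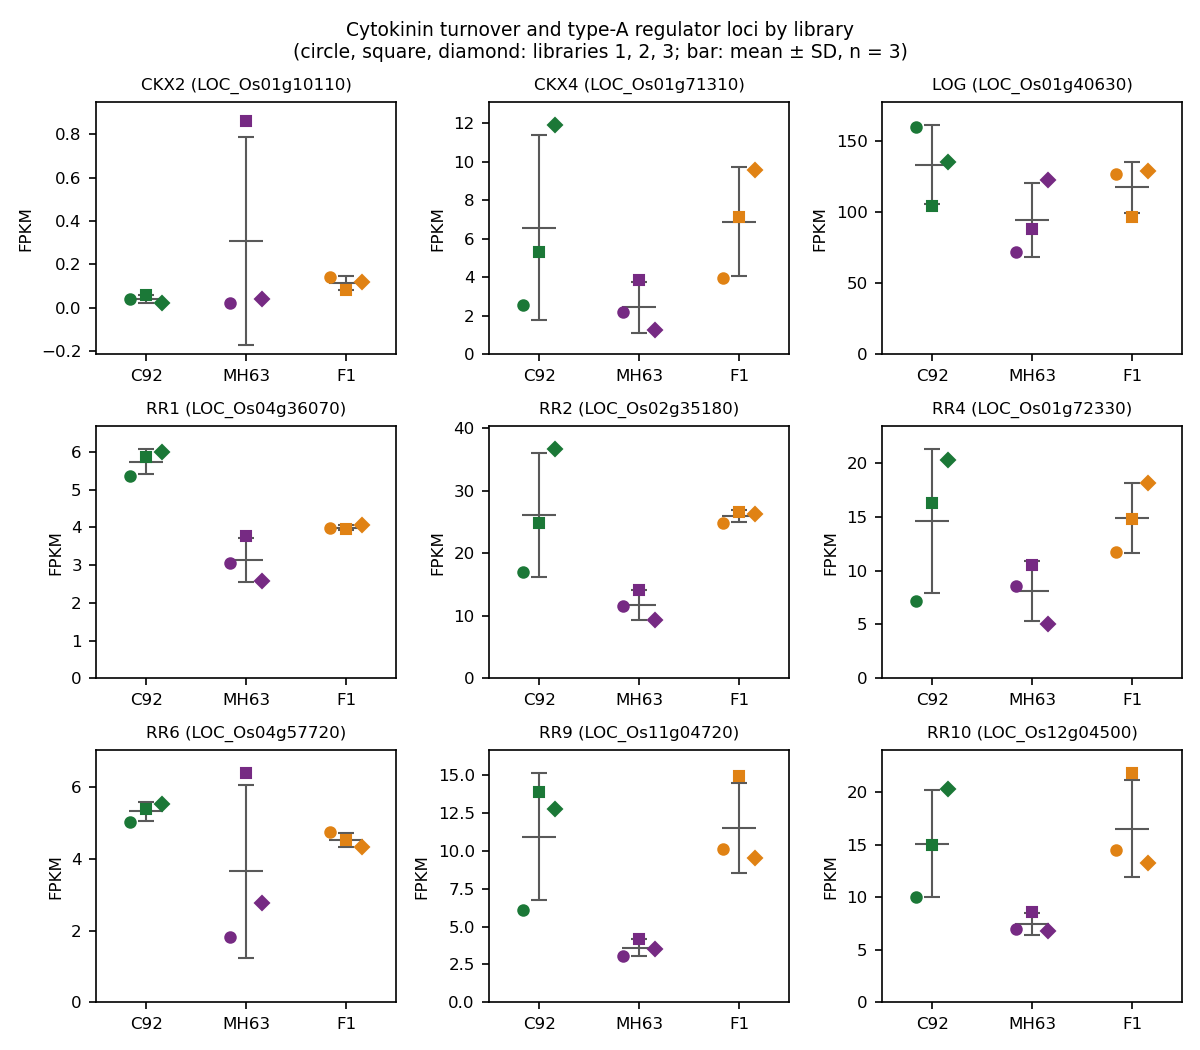
FPKM (vertical axes, each with its own scale) of the 9 loci in C92, MH63 and F1. Circles, squares and diamonds are libraries 1, 2 and 3, and the grey bars are the mean and SD of 3 libraries. LOG lies between 72.25 and 159.75 FPKM in all groups, and CKX2 exceeds 0.14 FPKM in a single MH63 library. RR1, RR2, RR9 and RR10 have all MH63 libraries below all others.

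The parents were set against each other because the series asks how expression differs between rice lines, and the type-A regulators carried the clearest differences among the loci. RR1, RR2, RR9 and RR10 were higher in C92 than in MH63, and RR4 and RR6 did not pass the test. RR9, which with RR10 limits salt tolerance in rice, had a mean of 10.9 ± 4.19 FPKM in C92 against 3.60 ± 0.557 in MH63. RR2, a regulator that acts in crown root formation in rice, had a mean of 26.1 ± 9.89 FPKM in C92 against 11.7 ± 2.38 in MH63 (SD, n = 3). Summed over the 6 type-A loci, C92 libraries held 50.73, 81.18 and 101.34 FPKM and MH63 libraries 35.05, 47.59 and 30.17.

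By library, RR9 stood at 6.12, 13.87 and 12.74 FPKM in C92 and at 3.07, 4.18 and 3.54 in MH63. The log2 difference was 1.31 (SE 0.27, limma adjusted p = 0.00503), and no library of MH63 reached the lowest of C92. RR10 stood at 10.06, 14.99 and 20.26 FPKM in C92 and at 6.94, 8.61 and 6.82 in MH63. Its difference of 0.89 (SE 0.24, limma adjusted p = 0.0199) lost the call without C92 library 2 (adjusted p = 0.0595), C92 library 3 (0.0712), MH63 library 1 (0.0578) or MH63 library 3 (0.0541). The groups nevertheless do not overlap at this locus.

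RR2 stood at 16.94, 24.81 and 36.6 FPKM in C92 and at 11.59, 14.12 and 9.36 in MH63, again without overlap. The log2 difference was 1.05 (SE 0.24, limma adjusted p = 0.00784). RR1, which lies downstream of the crown root factor CRL5 in rice, had far tighter libraries. It held 5.37, 5.85 and 5.99 FPKM in C92 and 3.05, 3.76 and 2.59 in MH63, a log2 difference of 0.71 (SE 0.12, limma adjusted p = 0.00118). The calls of RR1, RR2 and RR9 between the parents held in every other setting tried that tested them.

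RR4 and RR6 overlapped between the parents, in each case because of a single library. RR4 stood at 7.22, 16.27 and 20.22 FPKM in C92 and at 8.59, 10.55 and 5.09 in MH63, so that C92 library 1 fell among the MH63 libraries. Its log2 difference was 0.72 (95% interval -0.07 to 1.51, limma adjusted p = 0.145), and without C92 library 1 it was 1.13 (adjusted p = 0.0154). It was 0.44 without C92 library 3 (limma adjusted p = 0.412) and 0.46 without MH63 library 3 (adjusted p = 0.372). RR6, whose overexpression makes rice less sensitive to cytokinin, held 5.02, 5.39 and 5.53 FPKM in C92 and 1.81, 6.37 and 2.77 in MH63. Here MH63 library 2 stood above all C92 libraries. The difference was 0.56 (95% interval -0.07 to 1.20, limma adjusted p = 0.156) with that library and 0.95 (adjusted p = 0.00136) without it, but 0.26 (adjusted p = 0.460) without MH63 library 1, the lowest.

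In all, 4 of the 8 tested loci were called higher in C92 and 0 lower, where 19.2% and 14.9% of all tested loci were called, and 2 of the 8 were called at 2-fold or more, against 10.9%. At an unadjusted p below 0.05, 5 of 8 passed, against 44.3% of all loci. The median fitted log2 difference of the 8 was 0.80, beside 0.03 over all 21447 tested loci. The libraries of the parents did not overlap at 4 of 8, all higher in C92, against 26.8% of all tested loci in that direction. The genome used for alignment is not stated, so a lower MH63 level and poorer mapping of MH63 reads cannot be told apart.

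F1 was compared with MH63 to find how the hybrid departs from that parent. RR2, RR9 and RR10 rose in F1, each by more than 2-fold, and their F1 means were 0.992, 1.05 and 1.09 times those of C92. RR9 held 10.09, 14.92 and 9.5 FPKM in F1, a mean of 11.5 ± 2.97 and 3.20 times the MH63 mean, with a log2 difference of 1.43 (SE 0.27, limma adjusted p = 0.00565). RR2 held 24.8, 26.57 and 26.32 FPKM in F1, a mean of 25.9 ± 0.958 (SD, n = 3), with a difference of 1.10 (SE 0.24, adjusted p = 0.0107). RR10 held 14.5, 21.78 and 13.24 FPKM, a mean of 16.5 ± 4.61, with a difference of 1.02 (SE 0.24, adjusted p = 0.0172).

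The call of RR10 against MH63 was lost without MH63 library 1 (limma adjusted p = 0.0576), MH63 library 3 (0.0519) or F1 library 2 (0.0602). Leaving out F1 libraries 1 and 2 together leaves 1 hybrid library assumed to vary like the other groups, so calls are not read from that fit. The log2 differences of RR2, RR9 and RR10 were then 1.12, 1.20 and 0.76.

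RR4 held 11.68, 14.81 and 18.1 FPKM in F1, above every MH63 library, with a log2 difference of 0.83 that did not pass (95% interval 0.04 to 1.63, limma adjusted p = 0.134). It passed without C92 library 1 (adjusted p = 0.0475), a removal that leaves the difference itself at 0.83. RR1 held 3.97, 3.95 and 4.06 FPKM in F1, also above every MH63 library, with a difference of 0.28 (0.02 to 0.54, adjusted p = 0.123). RR6 held 4.73, 4.51 and 4.33 FPKM in F1, within the range of MH63, with a difference of 0.37 (adjusted p = 0.406) that became 0.76 (adjusted p = 0.00861) without MH63 library 2 and 0.067 (adjusted p = 0.889) without MH63 library 1. LOG differed by 0.33 (-0.15 to 0.82, adjusted p = 0.324). Against MH63, then, 3 of 8 tested loci rose in F1 and 0 fell, where 11.5% and 7.38% of all tested loci did, and 3 of 8 were called at 2-fold or more, against 5.79%. At an unadjusted p below 0.05, 6 of 8 passed, against 32.5%. All 6 loci whose F1 and MH63 libraries did not overlap (CKX4, RR1, RR2, RR4, RR9 and RR10) were higher in F1, against 22.1% of all tested loci in that direction. This comparison and that of the parents share the MH63 libraries, so their likeness is not independent.

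Against C92, the hybrid differed at RR1 alone. RR1 fell by 0.43 on the log2 scale (SE 0.12, limma adjusted p = 0.0253), from 5.74 ± 0.325 FPKM in C92 to 3.99 ± 0.0586 in F1 (SD, n = 3), and the libraries do not overlap. The call was lost with no filter (adjusted p = 0.0556), without C92 library 2 (0.0772) or 3 (0.0840), and without F1 library 1 (0.0597), 2 (0.0554) or 3 (0.0648). At RR6 the libraries did not overlap either, with every F1 library below every C92 library, but the log2 difference was -0.19 (95% interval -0.83 to 0.44, adjusted p = 0.657). That interval takes in the spread of MH63, since the groups share 1 estimate. With only F1 and C92 fitted, the SE was 0.10 in place of 0.28, and the difference still did not pass (limma adjusted p = 0.209). Thus 1 of 8 tested loci fell and 0 rose, where 13.7% and 10.6% of all tested loci did. The same 1 of 8 passed at an unadjusted p below 0.05, against 38.0%. F1 libraries lay below C92 without overlap at 2 of 8, against 20.7% of all tested loci.

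For the other type-A loci the intervals of F1 against C92 were wide. They ran from -0.48 to 0.59 for RR2, from -0.49 to 0.73 for RR9, from -0.41 to 0.69 for RR10 and from -0.68 to 0.91 for RR4. A difference of 1 or more in either direction on this scale thus lay outside all 4 intervals. The sign of these 4 differences and of CKX4, positive with all libraries, turned when C92 library 1 was left out. For CKX4 the interval ran from -0.86 to 1.23, and for LOG the difference was -0.17 (-0.66 to 0.31).

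**Figure D2:**
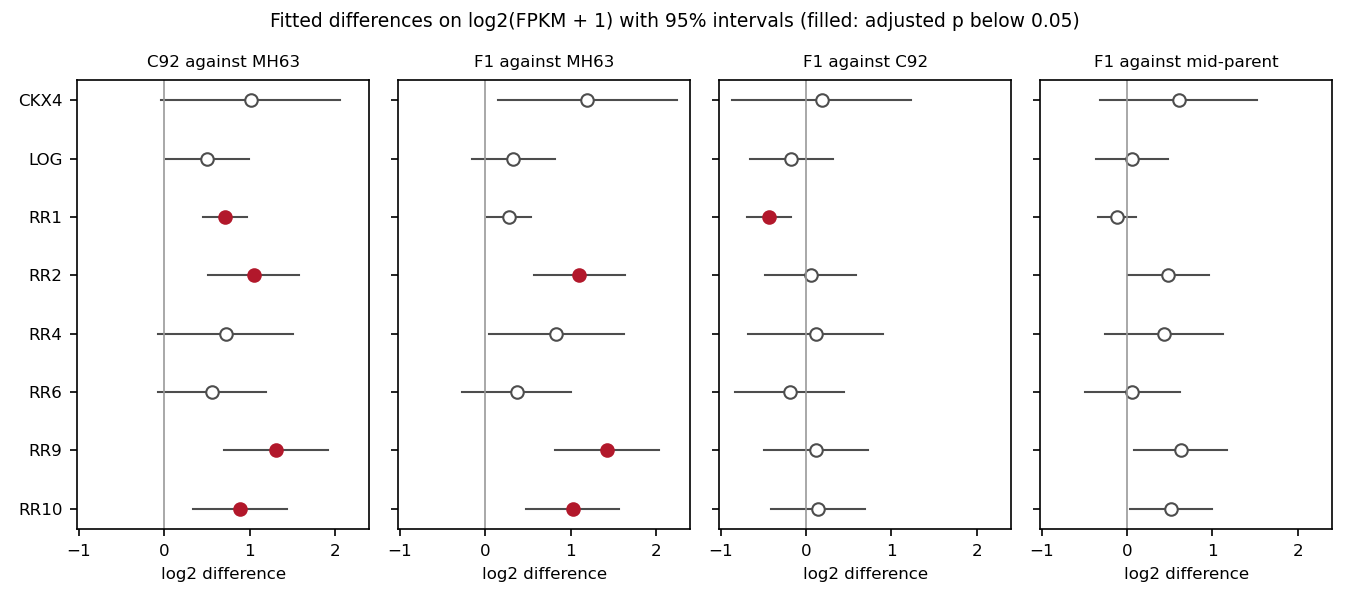
Fitted differences (horizontal axes, log2 scale of FPKM + 1) of the 8 tested loci in 4 comparisons, with 95% intervals from limma. Filled points have an adjusted p below 0.05: RR1, RR2, RR9 and RR10 between the parents, RR2, RR9 and RR10 for F1 against MH63, RR1 for F1 against C92, and none for F1 against the mid-parent.

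The mid-parent is the average of the parental levels, which F1 would show if the copy inherited from either parent kept its activity. F1 was above it for 7 of the 8 tested loci and below it for RR1, and 0 of 8 were called by limma, where 3.36% of all tested loci were called higher and 5.58% lower. At an unadjusted p below 0.05, RR2, RR9 and RR10 passed, 3 of 8 against 27.5% of all tested loci. RR9 averaged 1.59 times its mid-parent in FPKM, with a log2 difference of 0.63 (95% interval 0.08 to 1.17, adjusted p = 0.132). For RR10 the difference was 0.52 (0.03 to 1.00, adjusted p = 0.157) and for RR2 0.48 (0.01 to 0.95, adjusted p = 0.172). Single libraries lowered these values, to 0.38 for RR9 and 0.30 for RR2 without C92 library 1, and to 0.31 for RR10 without F1 library 2. They could also raise them, as for RR2 to 0.66 without C92 library 3 (limma adjusted p = 0.0549). Over all settings tried, the highest values were 0.77 for RR9 and 0.66 for RR10, and none of the 3 loci was called.

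Where F1 lay between its parents differed from locus to locus. On a scale with MH63 at 0 and C92 at 1, the F1 mean stood at 0.33 for RR1, 0.53 for RR6, 0.59 for LOG and 0.98 for RR2. It stood above C92 for RR4 (1.05), CKX4 (1.07), RR9 (1.08) and RR10 (1.18), so that the F1 mean exceeded both parents at 4 of the 8 tested loci, beside 30.1% of all tested loci. MH63 had the lowest mean of the 3 groups at all 8 tested loci, beside 37.2% of all tested loci.

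RR9 and RR10 lie in the duplicated tips of chromosomes 11 and 12 and are near-identical copies, so how the authors' counting shared reads between them is uncertain. RR10 was the higher copy in every library. The ratio of RR10 to RR9 was 2.26, 2.06 and 1.93 in MH63, 1.44, 1.46 and 1.39 in F1, and 1.64, 1.08 and 1.59 in C92, so that every MH63 library exceeded every other. Adding the copies removes that division, though reads dropped or counted at both copies would still affect the sum, which could not be checked. Together the copies reached 26 ± 8.76 FPKM for C92, 11.1 ± 1.51 for MH63 and 28.0 ± 7.58 for F1 (SD, n = 3). The summed pair was 1.11 above MH63 in C92 on the log2 scale (SE 0.26, limma adjusted p = 0.00874) and 1.24 above it in F1 (adjusted p = 0.00875). It did not pass against C92 (0.13, adjusted p = 0.745) or the mid-parent (0.58, adjusted p = 0.136).

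The loci varied strongly between libraries of the same group. The within-group SD on the log2(FPKM + 1) scale was 0.70 for CKX4, above that of 98.8% of all tested loci, and 0.53 for RR4, above 97.3%. It was 0.41 for RR6, 0.40 for RR9, 0.36 for RR10, 0.35 for RR2 and 0.31 for LOG, beside a median of 0.16 over all tested loci. These values are pooled over the groups, and on them RR1 was the exception, at 0.13. The pooled value of RR6 came from MH63, where its SD was 0.71. In C92 and F1 the SD of RR6 was 0.06 and 0.05, below the medians of 0.14 and 0.15 over all tested loci. In C92 the SD of RR2 was 0.53, and in F1 it was 0.05.

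These deviations ran together across loci. In C92, library 1 was the lowest for 7 of 8 tested loci, all but LOG, and library 3 the highest for 6 of 8. In MH63, library 2 was the highest for 7 of 8 tested loci, again all but LOG, and also for CKX2. Over all tested loci, C92 library 1 was the lowest of its group at 33.5% and C92 library 3 the highest at 27.8%. MH63 library 2 was the highest of its group at 31.0%. In F1 the highest library was 3 for CKX4, LOG, RR1 and RR4, and 2 for RR2, RR9 and RR10. F1 library 3 was the highest at 26.4% of all tested loci and F1 library 2 at 40.4%. LOG went the other way: C92 library 1, lowest for the other tested loci, was its highest.

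**Figure D3:**
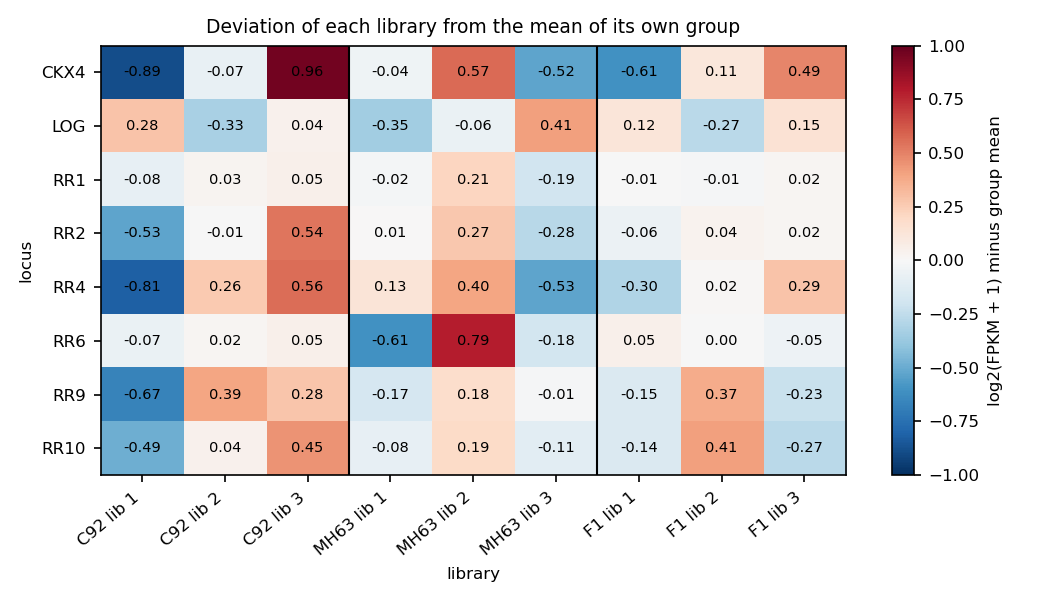
Deviation of each library (columns) from the mean of its own group, on log2(FPKM + 1), for the 8 tested loci (rows), with red above and blue below. C92 library 1 is negative and MH63 library 2 positive for all loci but LOG, and the widest entries are those of CKX4 in C92, from -0.89 to 0.96.

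The likeness of the patterns was described by Pearson correlation of log2(FPKM + 1) over the 9 libraries, which share groups and depth. RR4 had CKX4 as the closest of 21446 other loci (r = 0.96), and CKX4 had RR4 as the second closest, behind LOC_Os06g12050 (r = 0.97). RR9 and RR10 each ranked the other as number 3 (r = 0.97), behind loci led by LOC_Os05g33310 for RR9 and LOC_Os05g45954 for RR10. RR2 was closest to the same LOC_Os05g45954 (r = 0.99), with RR10 at rank 22 (r = 0.95). RR1 and RR6 were less close to the rest: the nearest listed locus of RR1 was RR2 at rank 2816 (r = 0.75), and that of RR6 was RR1 at rank 197 (r = 0.71). LOG had no close partner among them, with RR1 nearest at rank 4268 (r = 0.45).

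With group means removed, CKX4 and RR4 still varied together (r = 0.93), as did RR2 and RR4 (r = 0.92), RR2 and CKX4 (r = 0.92) and RR9 and RR10 (r = 0.89). Many unlisted loci were closer. Among 21446 other loci, RR4 ranked 26 for CKX4 and 31 for RR2, and CKX4 ranked 49 for RR4. RR10 ranked 81 for RR9, and RR9 ranked 73 for RR10. LOG was negatively related to CKX4, RR2, RR4, RR9 and RR10, from -0.35 with CKX4 to -0.58 with RR4. These correlations rest on 9 libraries in 3 groups and are a description.

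The rest of the cytokinin pathway was looked up in a list of 54 locus IDs in 9 classes, written from general knowledge of rice genes. Of these, 53 are in the files and 32 were tested. Between the parents 4 were higher and 4 lower in C92, beside 19.2% and 14.9% of all tested loci, with a median log2 difference of -0.13. Against MH63, 3 rose in F1 and 1 fell (median 0.01), beside 11.5% and 7.38% of all tested loci. Against C92, 2 rose in F1 and 2 fell (median 0.09), beside 10.6% and 13.7%. Against the mid-parent 1 rose and 0 fell, beside 3.36% and 5.58%. Since the RefSeq table holds none of these IDs, the loci are given by class and not by name. With so few tested loci per class, the counts by class are to be read beside these shares and are no result about a class.

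Among loci for hormone synthesis, 6 of the 9 isopentenyltransferases, which make the first cytokinin nucleotide, stayed below 1 FPKM in every library, and 0 of the 2 tested passed in any comparison. A locus listed as a CYP735A hydroxylase, which converts cytokinin nucleotides to the trans-zeatin form, was low in MH63. This locus, LOC_Os09g23820, was at 1.59, 1.06 and 2.56 FPKM for C92, 0.1, 0.15 and 0.3 for MH63, and 0.94, 1.86 and 1.71 for F1. The locus met the filter of 1 FPKM in 3 libraries only through C92 and F1, the groups where it is high. Its tests are therefore a description and lend no support to the direction seen at the regulators. Its level was higher in C92 than in MH63 by 1.18 (SE 0.21, limma adjusted p = 0.00242). In F1 it rose over MH63 by 1.06 (limma adjusted p = 0.00766), a call lost after quantile normalization (0.63, adjusted p = 0.0902). At these low levels the size rests on the pseudocount, and over the settings tried it ran from 0.79 to 2.68 between the parents and from 0.63 to 2.51 for F1 against MH63, highest in both with a pseudocount of 0.1.

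The LOG-like class, related to LOG, went in both directions. Between the parents, 1 of 7 tested loci had its higher level in C92 and 2 had it in MH63, beside 19.2% and 14.9% of all tested loci. LOC_Os09g37540 had mean FPKM of 8.47 ± 1.49 for C92, 24.7 ± 2.56 for MH63 and 21.3 ± 1.89 for F1 (SD, n = 3), and a log2 difference of -1.45 between the parents (SE 0.13, limma adjusted p = 2.81e-05) and of 1.24 for F1 against C92 (adjusted p = 0.000433). LOC_Os01g51210 had mean FPKM of 7.61 ± 0.836 for C92, 19.5 ± 0.788 for MH63 and 14.4 ± 0.460 for F1, a difference of -1.26 between the parents (SE 0.09, limma adjusted p = 4.79e-06). In F1 it rose over C92 by 0.84 (limma adjusted p = 0.000433) and fell by 0.42 against MH63 (adjusted p = 0.0115). Against C92, then, 2 of the 7 rose in F1 and 1 fell, beside 10.6% and 13.7% of all tested loci. The latter was LOC_Os05g46360, which fell by 0.28 (limma adjusted p = 0.0414). Against MH63 0 rose and 1 fell, beside 11.5% and 7.38%. LOC_Os09g37540 and LOC_Os01g51210 did not overlap between the parents, with MH63 the higher. Neither did LOC_Os03g64070, with C92 the higher, at 46.24 to 52.03 FPKM against 30.88 to 43.99 in MH63. Without overlap, C92 was the higher parent at 26.8% of all tested loci, and the share with MH63 the higher is not given here. The 10 LOG-like loci summed to between 130.99 and 177.1 FPKM in each library, beside the 72.25 to 159.75 FPKM of LOG alone.

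Of the 4 receptor kinases, all tested, 2 were higher in C92 than in MH63, beside 19.2% of all tested loci. In F1, 2 rose over MH63, beside 11.5%, and each of these differences was less than 2-fold. Against C92, 1 of the 4 fell in F1, beside 13.7%, namely LOC_Os02g50480 by 0.41 on the log2 scale (limma adjusted p = 0.00931). LOC_Os03g50860 rose over the mid-parent by 0.30 (limma adjusted p = 0.0447). Of 5 phosphotransfer loci, 0 passed in any comparison. Of 5 tested type-B regulators, 1 was lower in C92 than in MH63, beside 14.9% of all tested loci, and 0 passed in the F1 comparisons. Of the 7 other type-A loci on the list, 5 stayed below 1 FPKM in every library and 0 of the 2 tested passed. Their sum was at most 4.43 FPKM in any library, against at least 30.17 for the 6 type-A regulators described above. Of 4 further oxidases tested, 1 was lower in C92 than in MH63, beside the same 14.9%.

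**Figure D4:**
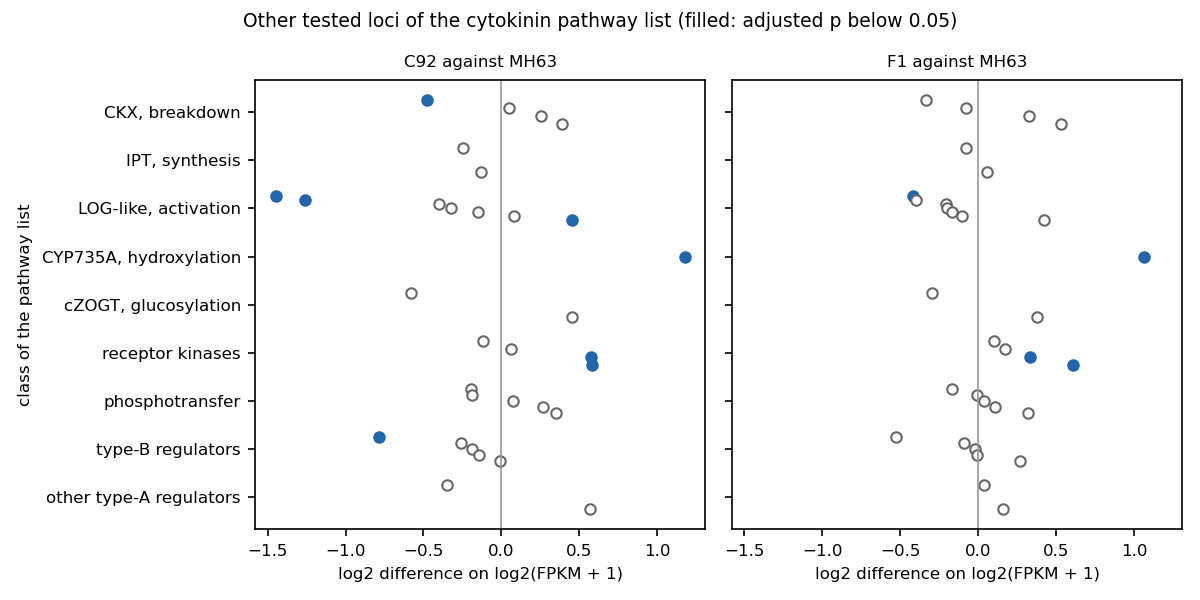
Fitted log2 differences (horizontal axes, log2 of FPKM + 1) of the 32 other tested loci of the pathway list by class (rows), for C92 against MH63 and F1 against MH63. Filled points have an adjusted p below 0.05: 4 higher and 4 lower in C92, and 3 higher and 1 lower in F1.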

How the data were processed

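Reads were aligned with HISAT2 2.0.5, per the submitters' processing notes; build, annotation and the expression program: not given in the sources used here. Per locus and library, the authors deposited 1 FPKM value, with 2 decimals and no header. Strand is not stated in the labels' protocols, so overlapping loci on opposite strands are uncertain. The labels give no batch.

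All 55783 loci were joined by ID. The test took 21447 loci, those that reached an FPKM of 1 in 3 or more libraries, and 8 of the 9 members passed. limma 3.58.1 in R 4.3.3 was fitted to log2(FPKM + 1) over all 9 libraries with a mean for each group and an intensity trend, and was tested on simulated data. This scale understates the change of low loci. Tests were two-sided with Benjamini-Hochberg adjustment over all tested loci, and a call is an adjusted p below 0.05. The mid-parent is the log2 of the parents' arithmetic mean as fitted, with its error by the delta method. Depth relative to C92 library 1 is the commonest ratio among values of 0.2 to 1.5 FPKM; without read numbers, no counting interval is given.

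The members and lists were chosen with earlier results of these data known. All members were named. Other pathway loci were to be named only if called at 2-fold or more, at most 2 up and 2 down in a comparison. LOC_Os05g46360, LOC_Os03g64070, LOC_Os02g50480 and LOC_Os03g50860, called at less than 2-fold, were named beyond this rule. Further loci called at less than 2-fold were not named. The locus nearest in pattern to each tested member was found by Pearson correlation, though not all of these are printed. Promoter and protein sequences were not analysed here. Alternatives were another pseudocount (0.1), no filter, a mean FPKM of at least 5, quantile and median-ratio scaling, the replicate number as a block, only the groups compared, single libraries left out, F1 libraries 1 and 2 left out, a log-scale mid-parent, and RR9 and RR10 summed.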

Additional observations from a re-analysis of the deposited data

How the results depend on the processing

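Under the other settings, 505 of the 544 differences of single loci kept their direction and their side of the threshold, 6 passed newly, 17 lost the call and 16 changed sign. All differences of the 8 tested loci between C92 and MH63 and between F1 and MH63 stayed above 0. Loci called between the parents numbered 3 to 6 with single libraries left out. Over all tested loci the calls then ran from 5239 of 21208 to 7415 of 21330, beside 7313 of 21447 with all libraries. F1 against MH63 gave 2 to 4, where 2720 of 21257 to 3986 of 21180 tested loci were called, beside 4057 of 21447 with all libraries. Without F1 libraries 1 and 2, the log2 differences of RR2, RR9 and RR10 were 1.12, 1.20 and 0.76. F1 against C92 gave 0 to 1 with single libraries left out, where 3024 of 21330 to 5500 of 21253 tested loci were called. With no filter it gave 0, beside 4270 of 44340. At a mean FPKM of at least 5 it gave 0, beside 3359 of 14199 (RR1 is then not tested). Without F1 libraries 1 and 2, the RR1 difference was -0.41. Against the mid-parent 0 were called under every alternative, where 488 of 21330 to 1795 of 21180 tested loci were called with single libraries left out. Differences that changed sign were those of F1 against C92, which ran with single libraries left out from -0.26 to 0.66 for CKX4, -0.21 to 0.32 for RR2, -0.29 to 0.39 for RR4, -0.22 to 0.31 for RR9 and -0.11 to 0.37 for RR10; without F1 libraries 1 and 2 they were -0.11 for RR9 and -0.13 for RR10. Against the mid-parent, LOG ran from -0.040 to 0.19 and RR6 from -0.069 to 0.21. The cause was not tested. With the replicate block the calls numbered 4 between the parents, 3 for F1 against MH63, 1 for F1 against C92 and 0 against the mid-parent, as without it. Of all 21447 tested loci, 6645, 3479, 4584 and 1316 were then called in these comparisons. Correlations of deviations ran from -0.43 to 0.34 for same-numbered libraries of different groups and from -0.41 to 0.41 for differently numbered ones. With 3 libraries per group, these ranges cannot tell whether the numbers pair the libraries. Depth limits CKX2, which lies near the smallest values the libraries register.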
